A study of Mus musculus with 10 samples.

Results

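The membrane-bound mucins Muc1, Muc4, Muc13 and Muc20 were measured in the jejunum of newborn mice that express IL-23 and of wild type (WT) controls. They were taken by gene symbol, and all 4 were found among the 24062 symbols counted in each library. The mice were C57BL/6, 5 days old. In KSR23 mice, a Cre recombinase under the keratin 14 promoter, active in keratinocytes and other squamous epithelia, switches on an IL-23 cassette placed in the ROSA26 locus. The controls are labelled wild type. Each group had 5 libraries of oligo-dT-primed, amplified cDNA from whole jejunum. The study describes the libraries as biological replicates, which the labels number. Counts over genes came to between 25.5 and 32.0 M per WT library and between 31.2 and 60.9 M per KSR23 library. All levels are given as counts per 1000000 counts (CPM) after scaling for library composition.

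Membrane-bound mucins carry a long extracellular stretch rich in serine and threonine, covered with O-linked glycans and held in the apical membrane by a transmembrane segment. Together they form the glycocalyx of the brush border, which sits under the secreted mucus and keeps bacteria and enzymes away from the cell surface. Several are cleaved or shed from the cell, and their short cytoplasmic tails take part in signalling. Interleukin 22, a cytokine that IL-23 elicits from lymphocytes, acts on epithelial cells through STAT3 and is known to raise mucin expression in the gut. In bulk tissue, a change in the number of cells that express a gene cannot be told apart from a change in its RNA per cell.

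Muc1 lies on chromosome 3 (GRCm38/mm10, 89229057 to 89233381, plus strand) and has 7 exonic blocks. The other 3 genes lie within 1.08 Mb of each other on chromosome 16, namely Muc4 (32735886 to 32782391, plus strand, 27 exonic blocks), Muc20 (32777419 to 32797435, minus strand, 5 blocks) and Muc13 (33794037 to 33819934, plus strand, 13 blocks). Muc4 and Muc20 run towards each other and overlap at their 3′ ends by 4973 bases. Of these, 381 bases are exonic in both genes, which is 9.46% of the exonic bases of Muc20 and 3.38% of those of Muc4. The cDNA kit does not keep the strand, so reads of the 2 genes cannot be told apart in that stretch. Of all stretches of 75 bases, the read length, in the longest transcript of Muc20, 11.3% also occur in Muc4 transcripts on either strand. In Muc13, 12.6% of such stretches occur more than once within the transcript, whose extracellular part is repetitive, and Muc1 had none of either kind.

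Because all 4 genes were higher in KSR23 libraries, the stretch just upstream of each start site is printed here to compare what these promoters hold. The sequences are from RefSeq (GRCm38.p6), each the 250 bases before the start, written 5′ to 3′ on the strand of the gene: chr3:89228806-89229055 (plus), chr16:32735636-32735885 (plus), chr16:33793787-33794036 (plus) and chr16:32797436-32797685 (minus). Capitals mark matches to TTCNNNGAA, the inverted repeat that STAT factors can bind, and to TATAAA, the core of a TATA box. Both strands were searched, and the motifs do not overlap in these windows.
Muc1: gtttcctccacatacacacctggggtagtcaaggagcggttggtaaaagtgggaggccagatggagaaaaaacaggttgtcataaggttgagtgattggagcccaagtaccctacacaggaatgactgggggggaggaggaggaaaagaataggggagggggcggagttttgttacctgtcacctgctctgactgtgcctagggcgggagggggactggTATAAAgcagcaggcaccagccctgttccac
Muc4: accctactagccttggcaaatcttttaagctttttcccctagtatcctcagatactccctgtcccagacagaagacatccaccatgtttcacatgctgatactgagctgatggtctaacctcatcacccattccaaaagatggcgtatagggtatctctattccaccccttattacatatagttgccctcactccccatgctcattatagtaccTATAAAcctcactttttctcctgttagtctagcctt
Muc13: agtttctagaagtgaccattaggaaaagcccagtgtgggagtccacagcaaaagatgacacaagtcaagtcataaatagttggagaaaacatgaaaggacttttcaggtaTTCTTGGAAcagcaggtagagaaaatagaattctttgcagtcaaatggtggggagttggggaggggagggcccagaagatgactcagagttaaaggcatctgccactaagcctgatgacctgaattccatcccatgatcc
Muc20: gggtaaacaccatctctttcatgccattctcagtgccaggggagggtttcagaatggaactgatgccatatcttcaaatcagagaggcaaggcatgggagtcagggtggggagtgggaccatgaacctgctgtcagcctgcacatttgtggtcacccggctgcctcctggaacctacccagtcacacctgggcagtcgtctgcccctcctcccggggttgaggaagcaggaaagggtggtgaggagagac
TTCNNNGAA occurred only in the Muc13 window, as TTCTTGGAA at position -140 from the start, and 7.02% of the 32851 promoter windows of the RefSeq table held it. TATAAA occurred in the Muc1 window at position -31 and in the Muc4 window at position -36, against 12.4% of all windows. The Muc20 window held neither motif, and a second RefSeq start of Muc13, not shown, also held neither. A match is a run of letters, not a measured binding site, and nothing was measured here on factor binding.

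All 4 membrane-bound mucins were called higher in KSR23 jejunum by the likelihood ratio test, by between 2.44-fold and 5.25-fold. In the same fit over 17632 genes, 18.5% of genes were called at an adjusted p under 0.05, 9.73% higher and 8.76% lower in KSR23. By the quasi-likelihood F test, which allows for uncertainty in each gene's own spread, 3 of the 4 were called, all but Muc20, against 8.47% of all genes called higher and 15.4% called in either direction. The CPM values of the groups did not overlap for 2 of the 4, Muc1 and Muc4, against 7.41% of all genes higher without overlap (14.4% in either direction). The median log2 fold change of the 4 genes was 2.03, beside 0.03 over all tested genes.

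Muc1, an epithelial mucin whose cytoplasmic tail binds β-catenin and receptor tyrosine kinases, was low in WT and higher in every KSR23 library. Its level in the WT libraries, replicates 1 to 5, was 0.588, 0.672, 0.367, 0.374 and 0.563 CPM. In the KSR23 libraries it was 2.60, 2.90, 2.39, 2.13 and 3.50 CPM. Every KSR23 library lay above every WT library, and the spread within each group was narrow. The mean rose from 0.513 ± 0.136 CPM (SD, n = 5) to 2.70 ± 0.529 CPM (SD, n = 5). On the log2 scale the difference was 2.39 with an SE of 0.35 (adjusted p = 1.27e-09, and 0.000354 by the quasi-likelihood test). The values rest on 10 to 19 counts per WT library and 60 to 183 per KSR23 library.

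Muc4, a very large mucin with EGF-like domains that associates with the receptor ErbB2, had more spread than Muc1. The WT libraries held 2.57, 0.530, 0.807, 1.41 and 2.14 CPM, a range of 4.84-fold. The KSR23 libraries held 4.54, 5.68, 8.90, 3.38 and 7.88 CPM. The groups did not overlap, although WT replicate 1 and KSR23 replicate 4 were close. The mean rose from 1.49 ± 0.863 to 6.08 ± 2.29 CPM (SD, n = 5 each). On the log2 scale this was 2.02 with an SE of 0.46 (adjusted p = 0.000328, and 0.00976 by the quasi-likelihood test). Counts ran from 15 to 83 in WT and from 176 to 319 in KSR23 libraries.

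Muc13, a membrane-bound mucin of the intestinal brush border with EGF-like domains, was by far the most abundant of the 4. The WT libraries held 1752, 1278, 997.1, 1541 and 1553 CPM. The KSR23 libraries held 2237, 1452, 5769, 2885 and 5009 CPM. Replicate 2 of KSR23 lay inside the WT range, and the other 4 KSR23 libraries lay above it. The KSR23 libraries spanned 3.97-fold from lowest to highest, against 1.76-fold in WT. The mean rose from 1424 ± 292 to 3470 ± 1843 CPM (SD, n = 5 each). The log2 difference was 1.28 with an SE of 0.37 (adjusted p = 0.00615, and 0.0317 by the quasi-likelihood test). A likelihood ratio fit with the replicate number as a block gave 1.12 and no call (adjusted p = 0.0636). With 27173 or more counts in every library, counting error was small beside the spread between libraries.

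Muc20, a mucin that binds the hepatocyte growth factor receptor Met and is best known from kidney, was close to the limit of detection. The WT libraries held 1, 0, 3, 6 and 2 counts, and the KSR23 libraries 28, 2, 13, 17 and 14 counts. Scaled, these were 0.0310, 0, 0.110, 0.173 and 0.0751 CPM in WT and 0.398, 0.0645, 0.517, 0.301 and 0.395 CPM in KSR23. The count of 0 in WT replicate 2 allows a level of up to 0.106 CPM, taken as 3 counts in that library. As for Muc13, replicate 2 was the lowest KSR23 library and lay inside the WT range, while the other 4 lay above it. The mean went from 0.0778 ± 0.0677 to 0.335 ± 0.170 CPM (SD, n = 5 each), and the log2 difference was 2.04 with an SE of 0.76 (adjusted p = 0.0353). The quasi-likelihood test did not call it (adjusted p = 0.111). The share of these counts that came from the exonic stretch it has in common with Muc4 was not tested.

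**Figure D1:**
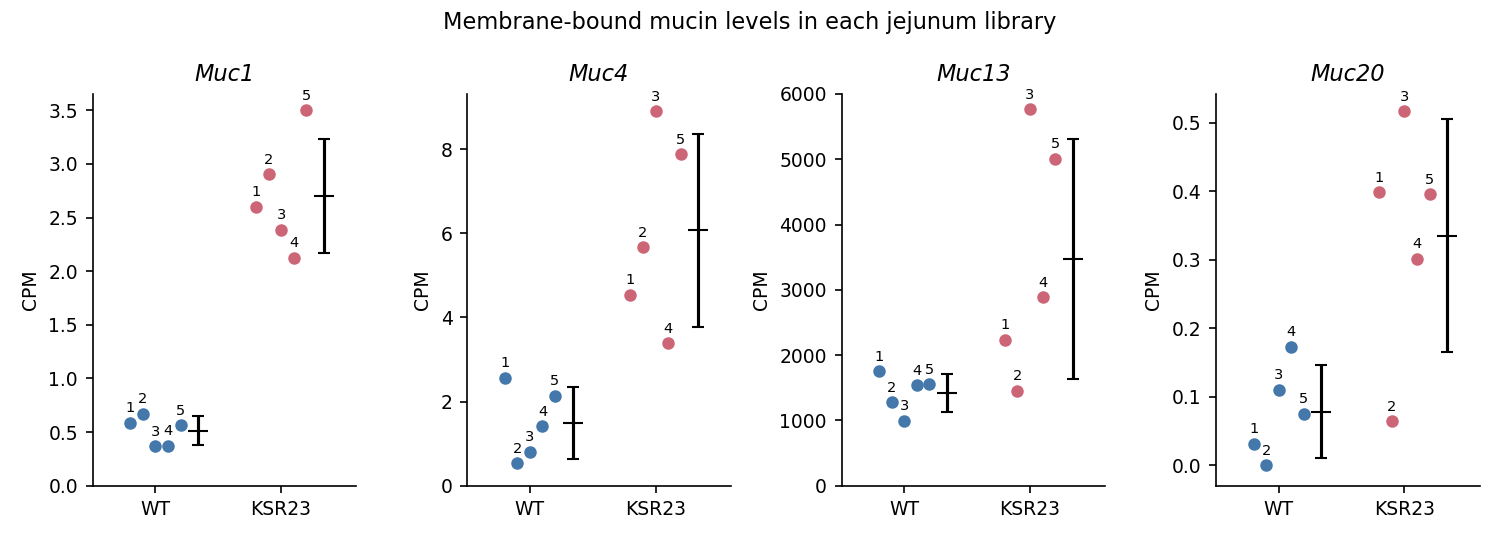
Level of each membrane-bound mucin in CPM (linear axis, 1 panel per gene, each with its own scale) in the 5 WT and 5 KSR23 libraries, numbered by replicate, with the mean and SD as bars. The groups are apart for Muc1 and Muc4, while KSR23 replicate 2 lies among the WT libraries for Muc13 (1452 CPM) and Muc20 (0.0645 CPM).

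Across all genes, replicates 4 and 5 of both groups lay between the other libraries. Each of them was the highest or lowest of its group for only 12.4% to 21.4% of 13181 well-counted genes, against 45.1% to 70.2% for replicates 1 to 3, where 40% would be the share of each library if the 5 were alike. Libraries in between others narrow the SD of a group for the genes where they lie between. Among the mucins this did not hold throughout. KSR23 replicates 4 and 5 were the lowest and highest for Muc1 (2.13 and 3.50 CPM). KSR23 replicate 4 was also the lowest for Muc4 (3.38 CPM), and WT replicate 4 was the highest for Muc20 (0.173 CPM). In the other cases, including Muc13 in both groups, replicates 4 and 5 lay between. The labels do not say which mouse each library came from, and every SD and p with n = 5 counts all 5 as separate samples. The tests were therefore also run on replicates 1 to 3 alone, where 3.36% of genes were called and 2.01% were called higher. The log2 fold changes there were 2.30 for Muc1, 2.32 for Muc4, 1.27 for Muc13 and 2.76 for Muc20, the last above the 2.04 of all 10 libraries. Muc1 (adjusted p = 0.00970) and Muc4 (adjusted p = 0.0487) were still called by the likelihood ratio test, but Muc13 (adjusted p = 0.336) and Muc20 (adjusted p = 0.291) were not. By the quasi-likelihood test on these 6 libraries none of the 4 was called, with adjusted p of 0.110 for Muc1, 0.203 for Muc4, 0.440 for Muc13 and 0.475 for Muc20, while 0.812% of all genes were called and 0.574% were called higher.

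With each of the 10 libraries left out in turn, Muc1, Muc4 and Muc13 were called every time. Muc20 was called in only 2 of the 10, without WT replicate 4 and without KSR23 replicate 2, and its adjusted p reached 0.0972 in the other 8 (without WT replicates 1, 2, 3 and 5 and KSR23 replicates 1, 3, 4 and 5).

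**Figure D2:**
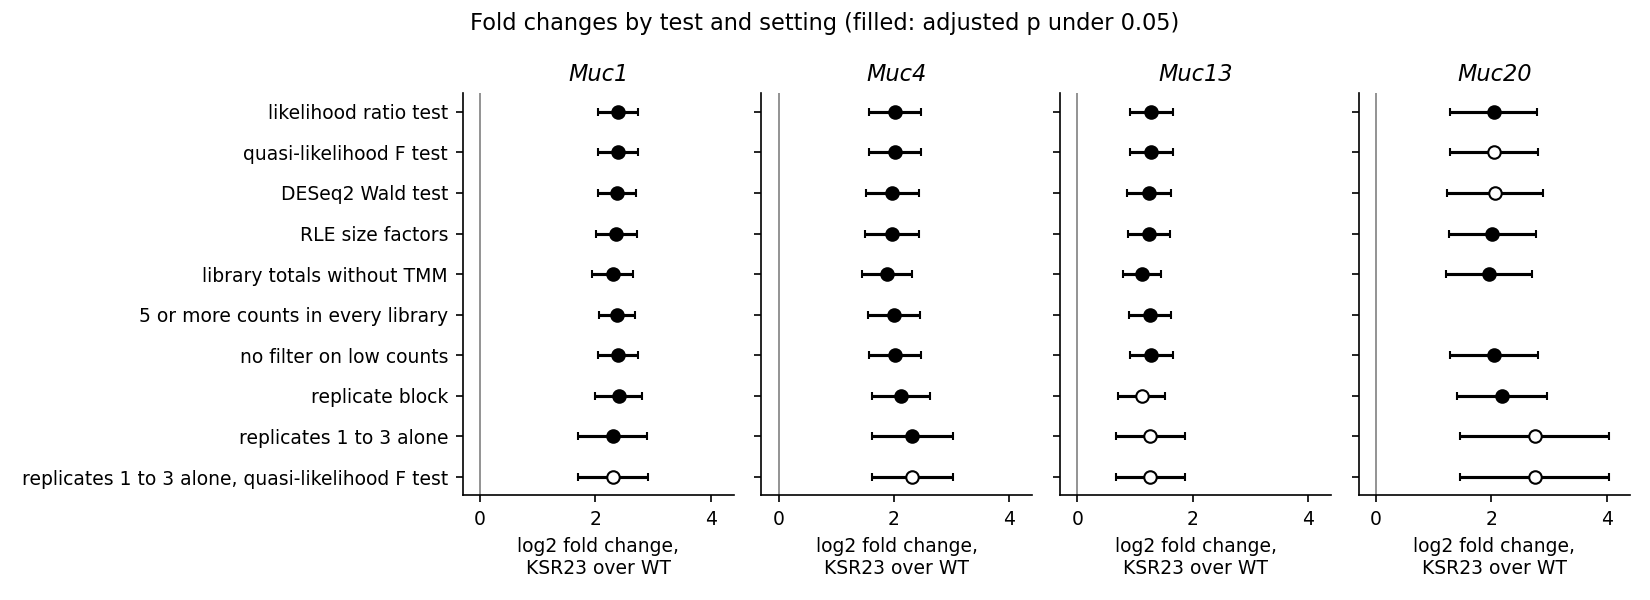
Log2 fold change, KSR23 over WT, of each mucin (x axis, bars are the SE) under 10 tests and settings (y axis; fits with 1 library left out are not drawn), with filled points for an adjusted p under 0.05. All points drawn lie to the right of 0, between 1.12 for Muc13 and 2.76 for Muc20, and the open points mark the calls lost for Muc20 and, in some settings, for the other mucins.

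To compare levels between genes, CPM was divided by the length of each gene's merged exons in kb. On this per-length scale the order was Muc13, Muc1, Muc4 and Muc20 by the mean of either group. Muc13 stood at 469 ± 96.2 CPM per kb (SD, n = 5) in WT and 1142 ± 607 in KSR23, which placed it 141st and 31st among 19642 genes ranked by per-length level. Muc1 had 0.229 ± 0.0606 CPM per kb in WT and 1.21 ± 0.236 in KSR23, and Muc4 had 0.132 ± 0.0765 and 0.539 ± 0.203. Muc20 had 0.0193 ± 0.0168 and 0.0832 ± 0.0421. The per-length ranges of Muc1 and Muc4 overlapped in WT (0.164 to 0.300 against 0.0470 to 0.228 CPM per kb) but not in KSR23 (0.948 to 1.56 against 0.300 to 0.789). Those of Muc4 and Muc20 did not overlap in KSR23. In WT they met, since Muc4 in replicate 2 (0.0470 CPM per kb) stood above Muc20 in replicate 4 (0.0429) by merged exons but just below it by the longest transcript (0.04703 against 0.04704).

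Muc13 made up 99.91% to 99.93% of the summed per-length level of the 4 mucins in the WT libraries. In the KSR23 libraries it was 99.62% to 99.9%, so every KSR23 library lay just below the WT range. The sum leaves out Muc3, Muc3a and Muc16, further membrane-bound mucins that were not among the counted symbols. Muc1 accounted for 0.0497 ± 0.0138% of that sum in WT and 0.136 ± 0.0834% in KSR23, with overlapping ranges. Among the other 3, Muc1 stood at 61.2 ± 14.9% of their own sum in WT and 66.6 ± 7.52% in KSR23, Muc4 at 33.0 ± 12.9% and 28.8 ± 6.75%, and Muc20 at 5.76 ± 5.59% and 4.63 ± 2.26%. These shares among the other 3 differed between the groups by less than their SD.

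The annotated genes beside the mucins on both chromosomes were described in the same fit. Of the 18 measured neighbours within 3 genes on either side, 2 were called higher and 3 lower, against 9.73% and 8.76% of all tested genes. Their median log2 fold change was 0.39. Near Muc4, Tfrc, the transferrin receptor, rose by a log2 fold change of 1.79 ± 0.34 (SE), and Tnk2, a cytoplasmic tyrosine kinase, by 1.44 ± 0.47. The call of Tnk2 was lost in replicates 1 to 3 alone (adjusted p = 0.507) and without any one of WT replicates 1, 4 and 5 and KSR23 replicate 2. On the same stretch Zdhhc19, a palmitoyltransferase, fell by 2.16 and Iqcg, a ciliary protein, fell by 2.43 on the log2 scale. In replicates 1 to 3 alone Zdhhc19 was not called (adjusted p = 0.174). No gene among the 3 on either side of Muc13 was called, including Heg1 (1.01 ± 0.40, adjusted p = 0.0592) and Itgb5 (-0.56 ± 0.27, adjusted p = 0.132). Next to Muc1, Dpm3, a subunit of dolichol-phosphate mannose synthase, fell by 0.83 on the log2 scale, and the other 5 neighbours were not called. The call of Dpm3 held in 9 of 19 alternatives and was lost in replicates 1 to 3 alone (adjusted p = 0.566) and without any one of WT replicates 2 to 5 and KSR23 replicates 1, 4 and 5.

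**Figure D3:**
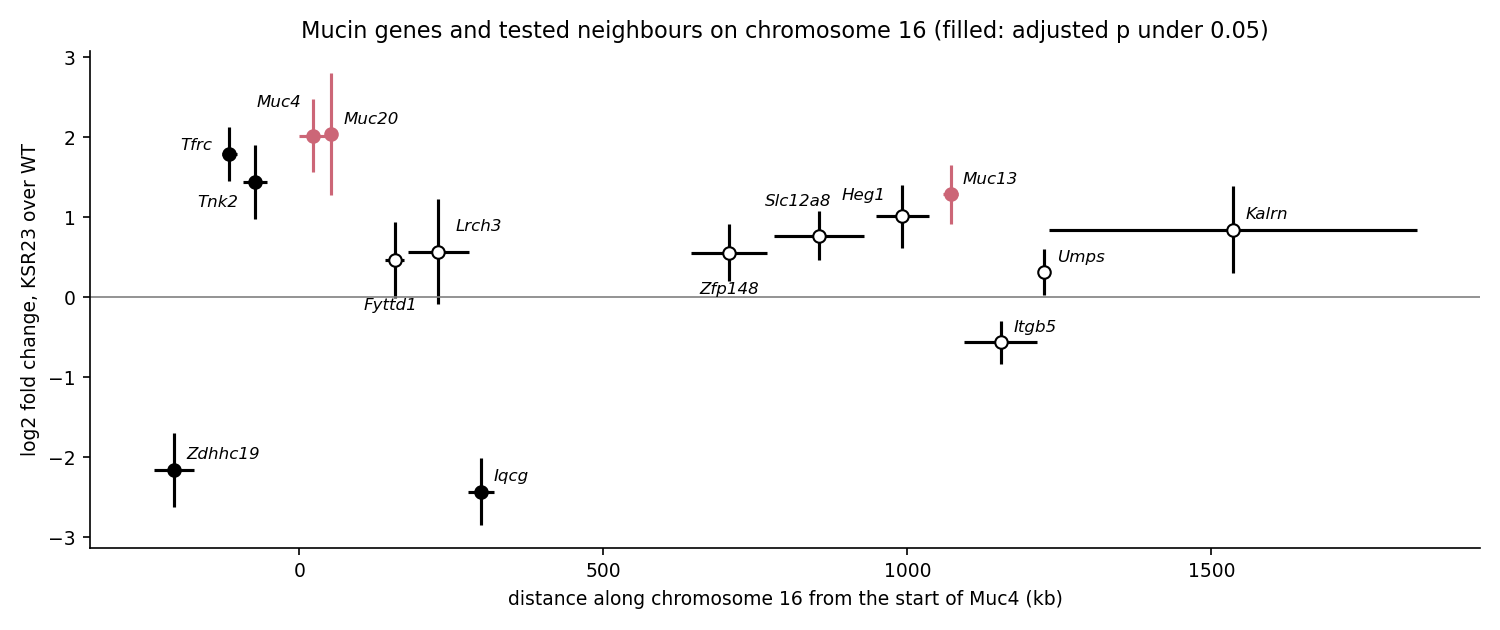
Log2 fold change, KSR23 over WT (y axis, bars are the SE), of Muc4, Muc20 and Muc13 (red) and their measured neighbours (black) against the distance from the start of Muc4 in kb, where horizontal bars span each gene and filled points have an adjusted p under 0.05. The 3 mucins lie at 1.28 or above, while Zdhhc19 and Iqcg on the same stretch lie below -2.

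The genes with the profile most like each mucin were found by the mean absolute difference of log2 CPM over the 10 libraries, after removing each gene's own mean. Because the groups differ, this likeness includes the group difference and is a description. Muc13 had the closest partners, where the median over all ranked genes was 0.818. They were Itgb6, an epithelial integrin subunit, at 0.110, Hnf4g, a nuclear receptor of the intestinal epithelium, at 0.152, and Otud4, a deubiquitinase, at 0.154. Muc13 also had the most counts, 27173 or more in every library, against 10 to 19 for Muc1 and 15 to 83 for Muc4 in WT. Scatter from low counts adds to such differences, and its part was not tested. For Muc1 the nearest were Slc37a1 at 0.226, Golm1, a Golgi membrane protein, at 0.227 and Plekhm1 at 0.238 (median 1.18). For Muc4 they were Plet1 at 0.263, Rbm20 at 0.279 and Ackr1 at 0.286 (median 1.18). For Muc20, with its low counts, they were Chml at 0.305, Gm5431 at 0.395 and Pip4k2a at 0.399 (median 1.02). Between the mucins the differences ran from 0.556 for Muc13 and Muc20 to 0.771 for Muc1 and Muc20, below each of the medians above. The genes named were picked as the nearest of all ranked genes, so a comparison of the mucins with them was fixed by that choice. The high KSR23 libraries for Muc13 were replicates 3 and 5. Itgb6 and Hnf4g, picked for a near profile, were highest in the same libraries, as that choice makes likely.

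**Figure D4:**
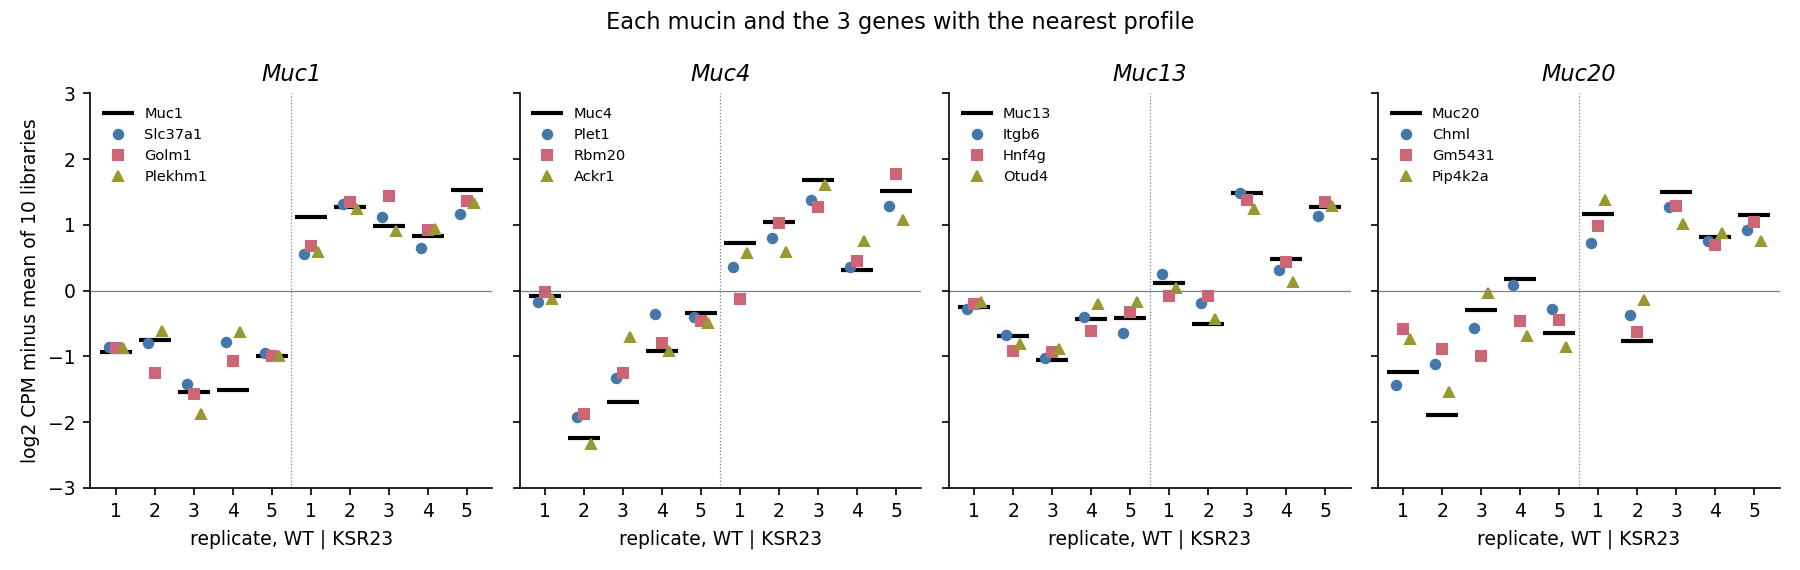
Log2 CPM minus the mean of the 10 libraries (y axis) for each mucin (black bars) and the 3 genes nearest to it (coloured symbols) in WT replicates 1 to 5 and KSR23 replicates 1 to 5 (x axis). The symbols follow the bars most closely for Muc13, at a mean absolute difference of 0.110 for Itgb6.

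The other mucins measured differed in direction. Of 12 other membrane-bound mucins and mucin-like membrane proteins, 6 were among the counted symbols and 5 were tested. Muc3, Muc3a and Muc16 were among those not counted. Emcn, the endothelial mucin endomucin, fell by a log2 fold change of 1.20 (41.8 CPM in WT and 18.2 CPM in KSR23, adjusted p = 0.00427), and the groups did not overlap. It was not called in replicates 1 to 3 alone (adjusted p = 0.386). Cd164 (0.52), Pdpn (0.22), Mcam (0.15) and Podxl (-0.46) were not called, and Muc15 had no counts. Among the gel-forming mucins, Muc2, the secreted mucin of goblet cells, rose from 50.6 ± 4.69 to 196 ± 41.0 CPM (SD, n = 5 each; log2 fold change 1.95, adjusted p = 2.73e-12) without overlap. Muc6, made by stomach and duodenal glands, had 1 to 63 counts in WT and 0 to 13 in KSR23 (log2 fold change -2.92, adjusted p = 0.0418, but 0.0881 by the quasi-likelihood test). Its call was lost without any one of WT replicates 1, 4 and 5 and KSR23 replicates 2 to 5. Muc5b had at most 3 counts, and Muc5ac and Muc19 had none.

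Goblet cells are the secretory cells that make mucus. Beside the counts of this and the following lists, 9.73% of all tested genes were called higher and 8.76% lower. In replicates 1 to 3 alone, 3.36% of genes were called. Of 10 goblet cell markers, 7 rose and none fell, with a median log2 fold change of 0.96. Zg16, a lectin of the mucus layer, rose by 3.23 ± 0.33, Spdef, a goblet cell transcription factor, by 1.43 ± 0.31, Fcgbp, an IgG Fc-binding mucus protein, by 1.37 ± 0.27 and Agr2, a disulfide isomerase needed for Muc2 folding, by 1.18 ± 0.26 (log2, SE). The markers not called, named after their values were seen, were Tff3 (0.24), Atoh1 (0.56) and Ano7 (0.96). The summed level of the 10 markers was 1537 to 2153 CPM in WT and 2786 to 5386 CPM in KSR23. The count was 4 of 10 without KSR23 replicate 5 and 1 of 10 in replicates 1 to 3 alone. The part of these cells in the rise of the membrane-bound mucins was not tested.

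Genes whose proteins signal with or cleave membrane-bound mucins were mostly higher where they changed. Of 19 such receptors, partners and sheddases, 9 rose and none fell, with a median log2 fold change of 0.98. Among receptors and their ligands, Erbb3, a partner of ErbB2, rose by 1.43 ± 0.25, Met by 1.36 ± 0.34 and its ligand Hgf by 1.82 ± 0.39 (log2, SE). Erbb2 itself, named after its values were seen, was not called (0.48 ± 0.44, adjusted p = 0.494). Icam1, an adhesion molecule that Muc1 can bind, rose by 1.44 ± 0.25. Among proteases, Mep1b, the β subunit of meprin, rose by 1.61 ± 0.31. The membrane serine protease St14 was also called (1.59 ± 0.57), but not by the quasi-likelihood test (adjusted p = 0.0883) or without any one of WT replicates 1, 3, 4 and 5 and KSR23 replicates 1, 2, 4 and 5. The count was 1 of 19 in replicates 1 to 3 alone.

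The enzymes that build mucin-type O-glycans were also counted. Of 17 genes for initiation and core synthesis, 8 rose and none fell, with a median of 1.03. C1galt1, the core 1 synthase, rose from 4.02 to 29.0 CPM (log2 fold change 2.85 ± 0.34), Gcnt3, a core 2 and core 4 enzyme of mucus-secreting tissue, from 11.9 to 85.8 CPM (2.85 ± 0.38) and Gcnt1 from 1.34 to 9.28 CPM (2.78 ± 0.41). Galnt5 (1.62) and Galnt7 (1.21), which add the first sugar, also rose. Of 16 genes that cap these chains, 6 rose and 2 fell, with a median of 0.27; without WT replicate 1, 4 rose and 3 fell. Fut2, which adds the terminal fucose of the H antigen, rose from 0.642 to 74.2 CPM (6.84 ± 0.38), and B4galnt2 by 1.82 ± 0.28. The sialyltransferases differed in direction. St3gal1 and St6galnac1 fell by 1.71 and 1.48, while St3gal4, named after its values were seen, rose from 542 to 981 CPM (0.85 ± 0.27), a call lost without KSR23 replicate 5. In replicates 1 to 3 alone, 3 of the 17 were called, and of the 16 only 2, both higher, so that St3gal1 (adjusted p = 0.206), St6galnac1 (adjusted p = 0.351) and St3gal4 were not.

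In the IL-22 receptor and STAT3 list, 6 of 10 genes rose and none fell. Il22 itself had 0 or 1 counts in WT libraries and 137 to 329 in KSR23 libraries. Il22ra1, the epithelial receptor subunit, rose by 1.39 ± 0.29 and Socs3, a STAT3 target and feedback inhibitor, by 4.36 ± 0.60 (log2, SE). Stat3, named after its values were seen, was not called (1.07 ± 0.46, adjusted p = 0.0887). The count was 3 of 10 without WT replicate 3, without WT replicate 5 or without KSR23 replicate 4, and 2 of 10 in replicates 1 to 3 alone. Of 14 intestinal transcription factors, 4 rose and none fell, namely Klf4 (1.63), Foxa3 (1.55), Hnf4g (1.32) and Hnf4a (1.08), and none of the 14 was called in replicates 1 to 3 alone.

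**Figure D5:**
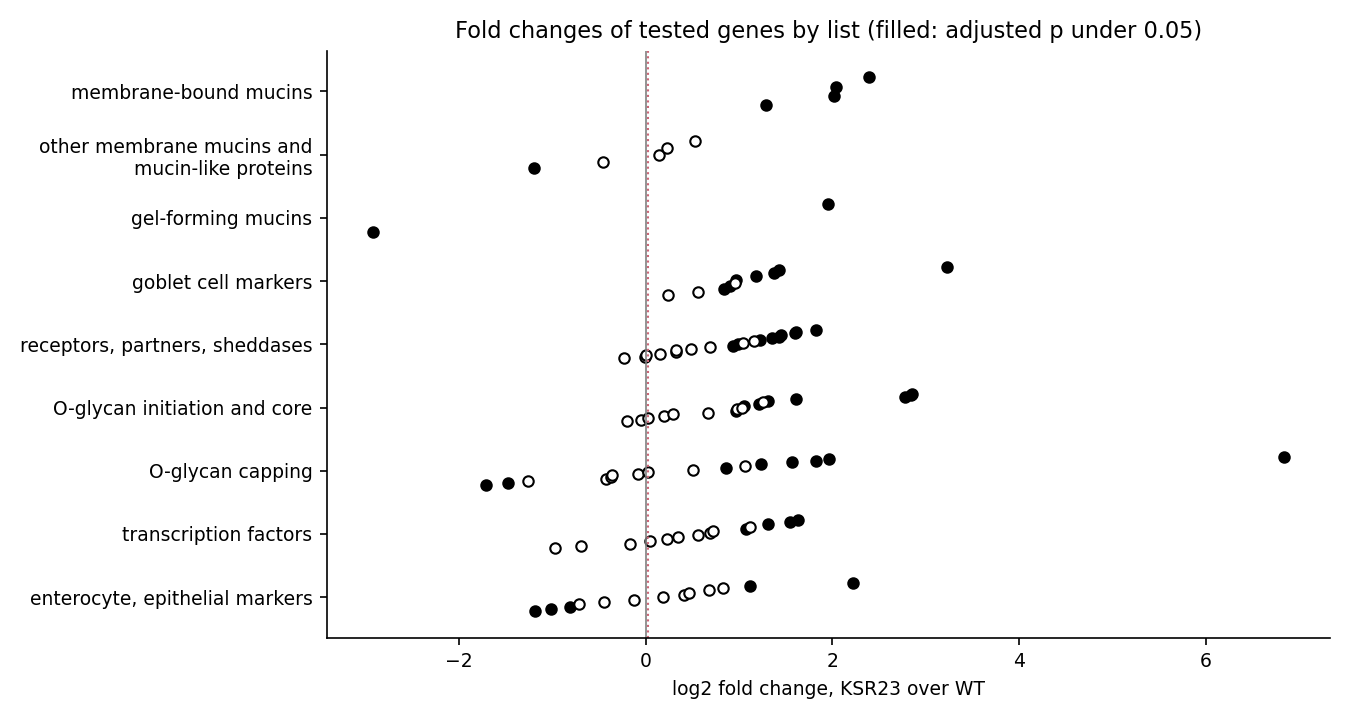
Log2 fold change, KSR23 over WT (x axis), of the tested genes of 9 lists (rows; the IL-22 list and the markers of other tissues are not drawn), with filled points for an adjusted p under 0.05 and a dotted line at the median of all tested genes, 0.03. The 4 membrane-bound mucins lie between 1.28 and 2.39, and among the genes drawn Fut2 is farthest to the right at 6.84.

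Markers of the tissue were present in all libraries, and some moved with the groups. Of 13 enterocyte and epithelial markers, 2 rose and 3 fell, with Krt20, a keratin of mature villus cells, up by 2.22 ± 0.36 and Fabp2, a fatty acid-binding protein, down from 9965 to 4366 CPM. The summed level of these markers was 75820 to 158600 CPM in WT and 44610 to 111200 CPM in KSR23. That count was 2 or 3 of 13 without any one of WT replicates 1, 3, 4 and 5 and KSR23 replicates 2 and 4, 2 of 13 by the quasi-likelihood test and 1 of 13 in replicates 1 to 3 alone. Without KSR23 replicate 1 it was 4 higher and 1 lower, without KSR23 replicate 3 it was 2 higher and 4 lower, and with library totals in place of TMM factors it was 1 higher and 4 lower. Of 6 tested Paneth cell markers, 3 rose and 1 fell. The lower call, Ang4, an antimicrobial ribonuclease, was lost, leaving 3 higher and 0 lower, without KSR23 replicate 4 and in replicates 1 to 3 alone. Among stomach and pancreas markers, those called were all lower in KSR23. For stomach these were 3 of 6 tested (summed level 11.5 to 15.0 CPM in WT and 0.742 to 2.15 CPM in KSR23, with Tff1 at 0 in every library). For pancreas they were 7 of 8 tested (101 to 225 CPM in WT and 6.22 to 15.98 CPM in KSR23, with Amy2a5 at 0). In replicates 1 to 3 alone, 1 of the stomach markers and 5 of the pancreas markers were called. Of 7 tested keratinocyte markers, 1 rose and 1 fell, with summed levels of 2.97 to 5.33 CPM in WT and 2.29 to 6.35 CPM in KSR23 and Dsg3 and Sprr2a1 at 0. That count was 0 by the quasi-likelihood test, in replicates 1 to 3 alone and without any one of WT replicates 1 and 3 and KSR23 replicate 5, and 1 (lower) without WT replicate 4 or WT replicate 5. Without KSR23 replicate 4 it was 2 higher and 0 lower. Of 10 leukocyte markers 3 rose (0 in replicates 1 to 3 alone), and of 6 mesothelium markers none was called. Of 6 tested markers of distal ileum and colon 1 was called higher, with Hoxb13 at 0, but 0 were by the quasi-likelihood test and without any one of WT replicates 2 to 5 and KSR23 replicates 4 and 5, and 2 were without KSR23 replicate 1. Of 6 smooth muscle markers 1 was called lower, but 0 were by the quasi-likelihood test and without any one of WT replicates 1, 4 and 5 and KSR23 replicates 1, 2, 4 and 5. The part of these cell types in the levels of the 4 mucins was not tested.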

How the data were processed

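Read counts per gene were deposited for 10 jejunum libraries (5 WT, 5 KSR23). Per the labels and the methods of the study, the authors amplified oligo-dT-primed cDNA, sequenced single reads of 75 bases, mapped them to mm10 with TopHat2 2.1.0 and counted protein-coding genes with HTSeq 0.6.1p1, keeping only reads that fell strictly within 1 gene. The strand setting is not given in the sources used here. Alignments set aside as not unique (8.62 to 17.1 M per library) were not counted, no molecular identifiers were used, and counts of 0 limit a level by counting error only.

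The members and gene lists were chosen with earlier results of these data known. Counts were fitted in edgeR 4.0.16 (R 4.3.3) with TMM scaling, after genes that never reached 5 counts in any library were dropped, and a likelihood ratio test as in the study's methods. The quasi-likelihood F test was run beside it, and Benjamini-Hochberg adjusted p under 0.05 was called. DESeq2 1.42.0, other scalings and filters, a replicate block, replicates 1 to 3 alone and each library left out were alternatives. Log2 CPM used a prior count of 2. The likelihood ratio, quasi-likelihood and DESeq2 fits of all 10 libraries were also run on simulated data, with an outcome not reported here. The other alternatives were not run on simulated data. Positions and lengths were from GENCODE M21, where 22750 of the 24062 symbols (94.5%) were found, and promoters from RefSeq, matched for 4 of 4 members. A marker fixed for 1 list is not reported here. The genes named were, unless said otherwise, drawn from the 4 members, the called genes of each list (up to 6 by size), all detected genes of the mucin lists, the 3 measured neighbours on either side and the 3 genes with the nearest profile among those with 5 or more counts in every library.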

Additional observations from a re-analysis of the deposited data

Results flagged for a closer look

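A library was far from the other 4 of its group in 7 of 192 groups tested, where chance gives 9.6, and none of the 7 was a membrane-bound mucin. WT replicate 3 was the lowest of its group in 5 of them, at a log2 CPM of 1.33 for Pdpn (67 counts, against 162 to 238 in the other WT libraries), 4.77 for Erbb3, 8.70 for Lct, 4.66 for Tfrc and 4.39 for Slc37a1. KSR23 replicate 3 was the lowest of its group for Tyk2, at a log2 CPM of 3.001. KSR23 replicate 2 was the lowest for Zdhhc19, at -0.81 (16 counts, against 111 to 307).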

How the results depend on the processing

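The direction of all 4 mucins was the same under each alternative. Muc20 lost its call under the quasi-likelihood F test (log2 fold change 2.04, adjusted p = 0.111), DESeq2 (2.07, adjusted p = 0.0581) and in replicates 1 to 3 alone (2.76), and could not be tested where 5 or more counts were required in every library; it was called in 6 of its 18 alternatives. Muc13 was not called with a replicate block (1.12) or in replicates 1 to 3 alone (1.27). With the quasi-likelihood test on those replicates, an alternative chosen after seeing the data, none was called (Muc1 2.31, Muc4 2.32, Muc13 1.27, Muc20 2.76). The cause was not tested.

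Genes called numbered 3261 in all, 579 in replicates 1 to 3 and 140 there by the quasi-likelihood test, where fewer libraries entered. Leaving out 1 library gave 2370 to 3802 called genes, and log2 fold changes of 2.28 to 2.55 for Muc1, 1.84 to 2.31 for Muc4, 1.02 to 1.53 for Muc13 and 1.78 to 2.63 for Muc20. A replicate block gave 2202 called genes and log2 fold changes of 2.40 for Muc1, 2.13 for Muc4, 2.19 for Muc20, all called, and 1.12 for Muc13 (adjusted p = 0.0636). It gave 2 higher and 1 lower of the enterocyte and epithelial markers and 3 higher and 0 lower of the Paneth cell markers. The deviations of same-numbered libraries correlated above 0.1 in 3 of 5 pairs, so the numbers were not taken as pairs, and 1 of 10 libraries correlated best with its own number. Of 323 counts of called genes in lists under alternatives, 238 were within 1.5 times the reported count, 83 were lower and 2 were higher, with 30 of those that moved in replicates 1 to 3. Low counts limit Muc20 (12 counts over all WT libraries) and, less, Muc1 (76).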
